A study of Caenorhabditis elegans with 2 samples.

Results

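LIN-14 is a nuclear, DNA-binding protein that sets the fates of cells in the first larval stage (L1) of the nematode Caenorhabditis elegans. The regions described here are the places where the tagged protein was enriched in intergenic sequence of the 5 autosomes, up to 3 kb from a protein-coding gene start but outside its promoter window. Overlapping peaks of the list filtered by irreproducible discovery rate (IDR) were merged into 11115 regions. A region belonged to the set when its summit, that of its highest-scoring peak, met 4 conditions. It lay outside every protein-coding gene, outside every promoter window, which ran from 1000 bp before to 200 bp after an annotated protein-coding 5′ end, more than 500 bp past gene 3′ ends, and no more than 3 kb from the nearest such 5′ end. In all 1371 regions met these conditions, 12.3% of the 11115. Of these, 252 lay on chromosome I, 316 on II, 236 on III, 261 on IV and 306 on V. They lay upstream of the nearest 5′ end in 1211 cases. The other 160 lay past the end of the gene that had the nearest annotated 5′ end, so "upstream" does not describe them.

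The worms were strain OP768, an unc-119(tm4063) mutant that carries the transgene wgls768, with lin-14 fused to TY1, EGFP and 3xFLAG tags and a functional unc-119 copy. The tagged gene is thus an added copy, with the tag at the C-terminus, and the untagged gene is not described as removed. Chromatin was sheared by sonication from whole L1 larvae of both sexes, pooled, with a labelled age of 6 hours, and was precipitated with an antibody to GFP. The labels give the synchronization as starvation at L1 after bleaching and do not say whether the larvae had been fed. The design held 2 biological replicates of this 1 group and no second condition, so each share and level below describes the map of this strain and stage. Values from whole larvae cannot tell in which cells LIN-14 was bound.

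Heterochronic genes such as lin-14 decide when a larval cell division or fate occurs. LIN-14 is abundant as L1 begins and is later turned off by the microRNA lin-4, and larvae that keep it repeat L1 fates. Genes of C. elegans are closely packed, and many messenger RNAs receive a spliced leader, so an annotated 5′ end is often a splice site that lies downstream of the place where transcription begins. Intergenic sequence beyond the promoter window can hold enhancers or such outlying starts.

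Sequences from the RefSeq copy of the assembly (WBcel235, ce11) show what lay under the strongest of these summits. Each is the summit with 50 bp to either side, on the plus strand, 5′ to 3′, and is named by the gene with the nearest protein-coding 5′ end. Capitals mark matches, on either strand, to GAGAGA and to the 5 leading 6-mers, chosen for their enrichment at the summits of the 9744 regions outside the set. These were ACGCAG in 11.3% of the summit windows of the set, GACGCA in 10.9%, CGTCTC in 15.2%, AGACGC in 11.2% and CGCAGA in 11.7%. All 5 leading 6-mers lie within a single 10-base run, GAGACGCAGA, read on 1 strand or the other. The sequences that hold that run are shown first, at T04C4.3 in both orientations, at egl-9 and at M106.2.
T04C4.3, chrIV:2219549-2219649: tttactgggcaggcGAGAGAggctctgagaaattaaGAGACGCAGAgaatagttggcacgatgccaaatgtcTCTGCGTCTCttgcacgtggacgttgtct
egl-9, chrV:10466733-10466833: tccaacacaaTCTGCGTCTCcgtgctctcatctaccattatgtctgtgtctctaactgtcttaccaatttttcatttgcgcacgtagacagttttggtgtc
M106.2, chrII:10851279-10851379: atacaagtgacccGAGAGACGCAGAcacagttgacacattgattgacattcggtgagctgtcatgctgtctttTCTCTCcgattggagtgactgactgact
GAGAGA recurred without the run at nhr-88, where CGCAGA also matched, and at hif-1.
nhr-88, chrII:2974020-2974120: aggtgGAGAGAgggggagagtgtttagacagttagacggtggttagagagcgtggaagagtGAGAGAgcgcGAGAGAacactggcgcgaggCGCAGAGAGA
hif-1, chrV:20778376-20778476: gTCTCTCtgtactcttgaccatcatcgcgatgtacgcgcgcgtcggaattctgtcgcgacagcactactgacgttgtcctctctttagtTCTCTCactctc
The windows at sup-26, ppm-2 and ari-2, which also rank among the strongest, and the weaker one at sea-2, a heterochronic gene, held none of these 6-mers.
sup-26, chrIII:4282142-4282242: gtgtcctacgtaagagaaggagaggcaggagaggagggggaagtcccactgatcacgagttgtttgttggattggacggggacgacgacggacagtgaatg
ppm-2, chrIII:4649433-4649533: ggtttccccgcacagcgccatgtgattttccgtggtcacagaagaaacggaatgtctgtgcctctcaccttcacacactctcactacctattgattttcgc
ari-2, chrIV:5548962-5549062: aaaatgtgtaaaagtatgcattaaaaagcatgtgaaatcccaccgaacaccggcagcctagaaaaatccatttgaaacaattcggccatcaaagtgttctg
sea-2, chrII:3948645-3948745: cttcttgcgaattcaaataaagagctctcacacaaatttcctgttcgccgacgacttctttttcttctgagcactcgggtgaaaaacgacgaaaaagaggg

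The highest score in the set was 5540.4, at chrIV:2219189-2219938, in a gap of 5971 bp between the starts of T04C4.3 and fnip-2, which face each other. Scores are the authors' and have no stated scale; those of the IDR-thresholded list come from both replicates together, while each replicate list has its own lower scale. This region scored 2910 in replicate 1 and 2655 in replicate 2. Its summit lay 2743 bp upstream of T04C4.3 and 3229 bp upstream of fnip-2, so the nearest start names it by a small margin. The T04C4.3 promoter window had a region of its own with a score of 657.

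The next strongest lay near sup-26, which encodes an RNA-binding protein that acts in sex determination. Its score was 5044, with 2468 in replicate 1 and 2598 in replicate 2, and its summit lay 1968 bp upstream. The sup-26 promoter window held regions of 558 and 299.9, so the outlying region carried the higher score. Ranks 3 and 4 of the set were taken by a pair of genes from 1 pathway. HIF-1 is the transcription factor of the hypoxia response, and EGL-9 is the prolyl hydroxylase that marks HIF-1 for degradation. The hif-1 region scored 4980.3 (2643 in replicate 1 and 2368 in replicate 2) at 1981 bp upstream of the nearest hif-1 start. The highest-scoring region in a hif-1 promoter window had 1455. At egl-9 the outlying region scored 4613 (2582 in replicate 1 and 2042 in replicate 2) at 1734 bp upstream, against 188 for the egl-9 promoter region. That summit also lay 41 bp from the 5′ end of a non-coding RNA gene, F22E12.9, so it is as much a region at that RNA as one upstream of egl-9. Further genes of the pathway were looked up after these values were seen. The X-linked cysl-1 had an intergenic region of 408 and a promoter region of 294, rhy-1 had promoter regions of 534 and 229 and no outlying one, and no region had vhl-1 as its nearest gene.

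lin-41 had the fifth highest score of the set. It encodes an RNA-binding protein of the heterochronic pathway that the let-7 microRNA represses. Its region, from 9343664 to 9344346 on chromosome I, scored 4545, with 2578 in replicate 1 and 1972 in replicate 2, and its summit lay 1456 bp upstream. No region lay in a lin-41 promoter window, and the only other region nearest to lin-41, of 216, lay in a gene body. The lin-41 summit window matched neither a leading 6-mer nor GAGAGA. Of the 16 autosomal genes on a list of 25 heterochronic genes, 3 others had a region of the set. sea-2, a zinc-finger gene, had one of 496 (303 in replicate 1 and 193 in replicate 2) at 1682 bp upstream. blmp-1, which encodes a zinc-finger transcription factor, had one of 424 (226 in replicate 1 and 198 in replicate 2) at 1638 bp upstream. nhr-85, a nuclear receptor gene, had one of 172 at 2124 bp upstream, found in replicate 1 at 125 and unmatched in replicate 2. The lin-41 region thus stood well above the rest, of which the nhr-85 one was near the list's lowest score of 147.5.

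The remaining regions of the top 15 ranged from 4541 to 3167. ppm-2, which encodes a protein phosphatase, had 4541 at 1011 bp upstream, with the start of T23F11.6 on its other side at 1561 bp and the non-coding RNA gene T23F11.10 at 29 bp. nhr-88, a nuclear hormone receptor gene, had 4280 at 2569 bp upstream in a gap of 14755 bp. mfb-1, an F-box gene, had 4106 at 1541 bp. ari-2, which encodes an Ariadne-type ubiquitin ligase, had 3780 at 2122 bp, and mau-2, which encodes a subunit of the cohesin loader, had 3751 at 1194 bp. C33D9.3 had 3502 at 2318 bp. chd-7, which encodes a chromatin remodeller, had 3203 at 2773 bp beside a promoter region of 4186, and was the sole gene of these 15 whose promoter region had the higher score. letm-1, which encodes a mitochondrial inner membrane protein, had 3183 at 2464 bp and lay 96 bp from the non-coding RNA gene H37A05.6. egl-10, which encodes a regulator of G protein signalling, had 3171 at 2637 bp, and mrpl-20, a mitochondrial ribosomal protein gene, had 3167 at 2803 bp. Across the 15, replicate 1 ran from 1727 to 2910 and replicate 2 from 1291 to 2655, and sup-26 was the only one higher in replicate 2.

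Intergenic sequence of this kind held about as many regions per length as promoter windows did. The classes differ in make-up, since promoter windows include sequence inside protein-coding genes and the set leaves all of it out. The effect of this on the comparison was not tested. The sequence that meets the conditions adds up to 8.59 Mb, 10.4% of the autosomes, which gives 159.6 regions per Mb. Autosomal promoter windows had 3483 regions, or 156 per Mb, and intergenic sequence beyond 3 kb had 1045, or 131 per Mb. The 500 bp past 3′ ends had 106 per Mb and gene bodies had 50.4 per Mb. Counting only the stronger 50% of all regions by score, the set had 82.8 per Mb, below the 95.1 per Mb of promoter windows. The ratio of the density of the set to that of promoter windows was 1.02, and 0.834 when promoter windows were begun 500 bp upstream in place of 1000 bp. Within sequence that RefSeq does not mark as repetitive, the set had 218 per Mb and promoter windows had 199.8 per Mb. A summit lay in marked sequence in 17.3% of the set, although 39.5% of the eligible bases are marked. How reads that map to several places were treated remains not given in the sources used here. Intergenic regions of the same kind on the X chromosome numbered 502, or 201.4 per Mb.

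**Figure D1:**
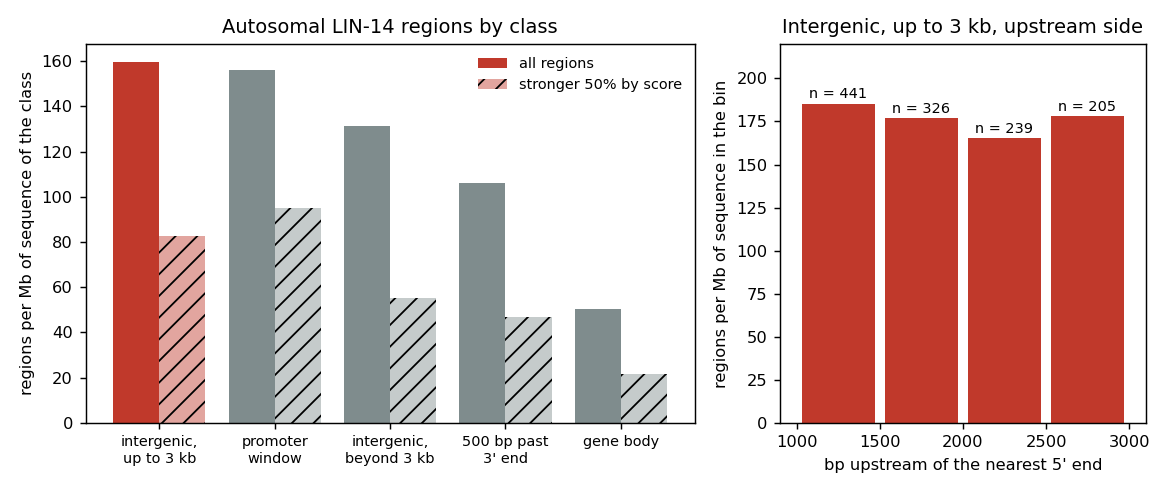
Left, LIN-14 regions per Mb of autosomal sequence of each class, for all regions (solid) and for the stronger 50% by score (hatched). Right, regions of the set per Mb by distance upstream of the nearest 5′ end. The set (red) stands level with promoter windows at 159.6 against 156 per Mb, and changes little with distance. Promoter windows include sequence inside genes, which the set leaves out.

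The density hardly changed with distance. From 1000 to 1500 bp upstream there were 441 regions or 185 per Mb, from 1500 to 2000 bp 326 or 177 per Mb, from 2000 to 2500 bp 239 or 165 per Mb, and from 2500 to 3000 bp 205 or 178 per Mb. The fall in number with distance therefore followed the shrinking length of sequence available. The median distance was 1745 bp (quartiles 1333 and 2305 bp). Scores were nearly unrelated to distance, with a Spearman rho of -0.055 across the 1211 upstream regions, although the last bin had the lowest median score, 312 against 410 in the first. Regions past the end of the gene with the nearest 5′ end were sparser, at 90.0 per Mb against 178 per Mb upstream. Scores on both sides of each edge overlapped. Just inside 3 kb, egl-27 had 448, ssp-34 had 236 and ida-1 had 191, while just beyond it nhr-138 had 155, W09D10.4 had 239 and erm-1 had 771. Just outside the promoter window, B0222.15 had 285, hil-1 had 680.4 and F57B1.5 had 395, while col-80 with 557, algn-10 with 1052 and lrp-1 with 411 lay just within it.

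Density varied more with the layout of a gap than with distance, mostly through gaps that no gene faces with its 5′ end. Gaps into which both neighbouring genes point their 5′ ends held 616 regions, or 192 per Mb. Gaps with 1 such gene held 718, or 156 per Mb, and gaps that no gene faces with its 5′ end held 36, or 46.3 per Mb. Both neighbours end at a gap of the last kind, so its value overlaps with the sparser level past gene ends given above. The distance bins hold upstream regions only. One further region lay between a gene and the end of its chromosome. With each autosome cut into 3 parts of equal length, the middle parts held 663 regions of the set, or 234.9 per Mb, the left parts 135 per Mb and the right parts 111.6 per Mb. Autosomal promoter windows had 228 per Mb in the middle parts, 108 in the left and 118.5 in the right, so this pattern was shared. By chromosome the set ranged from 121 per Mb on V and 135 per Mb on IV to 182 per Mb on II, 204 per Mb on I and 205 per Mb on III.

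Non-coding genes lay near some of these summits. In 292 of the 1371 (21.3%, 95% exact interval 19.2 to 23.6%) the summit was within 300 bp of the 5′ end of a non-coding gene, while 16.6% of the eligible bases are that close. Most of these genes, 233, were annotated only as ncRNA, and 26 were piRNA genes, which make small RNAs of the germ line. Some regions named here by a protein-coding gene lay that close to an ncRNA. Examples are fbl-1 (4 bp from F56H11.9), the unc-44 region of 1137 (41 bp from B0350.84), blmp-1 (79 bp from F25D7.6) and mig-17 (90 bp from F57B7.9). Pseudogenes accounted for 10, tRNA genes for 9, snoRNA genes for 7, lincRNA genes for 4, snRNA genes for 2 and microRNA genes for 1. One of the snRNA cases was strong. The region named by ins-13, an insulin-like peptide gene, scored 3039 (1598 in replicate 1 and 1418 in replicate 2). It lay 1304 bp past the ins-13 start but 38 bp from sls-2.2, a spliced leader RNA gene.

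**Figure D2:**
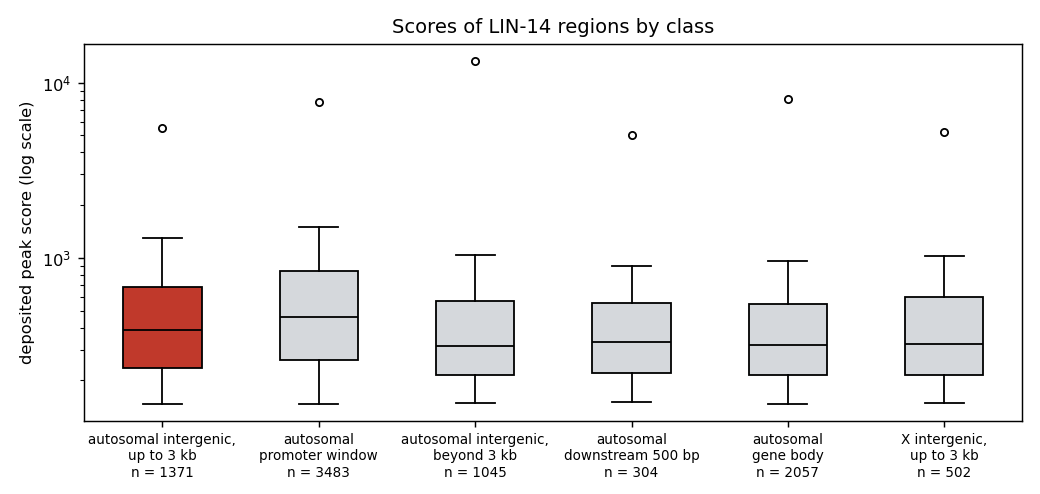
Deposited scores by class on a log scale, with the set in red. Boxes span the quartiles with the median as a line, whiskers run from the lowest value to the 90th percentile, and the point is the highest value. The set has a median of 386, below autosomal promoter windows at 461 and above intergenic regions beyond 3 kb at 313.

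Scores of the set had a median of 386 with quartiles of 234 and 682, against a median of 364 with quartiles of 226 and 672 in all other regions. Autosomal promoter windows were higher, with a median of 461, and intergenic regions beyond 3 kb, gene bodies and the X-linked intergenic regions were lower, with medians of 313, 319 and 322. The ratio of the median of the set to that of all other regions was 1.06, and it depends on where the set ends. With a limit of 2 kb it was 1.09 and with 5 kb 0.962, and among the stronger 50% of regions it was 0.975. Of the 100 highest-scoring regions of the whole map 11 were in the set, and of the highest 1000, 133. Regions of the set had a median width of 364 bp, against 350 bp for all others.

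Both replicate lists held nearly every region of the set. A summit within 100 bp was found in both lists for 1334 of the 1371 (97.3%, 95% exact interval 96.3 to 98.1%), against 97.0% of all 11115 regions. The IDR list is derived from these lists, so the share describes their summits and is no independent replication. The log2 ratio of the replicate 1 score to the replicate 2 score had a median of 0.35 (SD 0.38 across the 1334 regions), and the same median in all other regions. Across these regions, which share 2 libraries and are not replicates, the ranks of the 2 scores correlated with a rho of 0.933, and the log2 scores with an r of 0.942. After this shift was removed, 27 regions still differed by over 2-fold between the replicates.

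**Figure D3:**
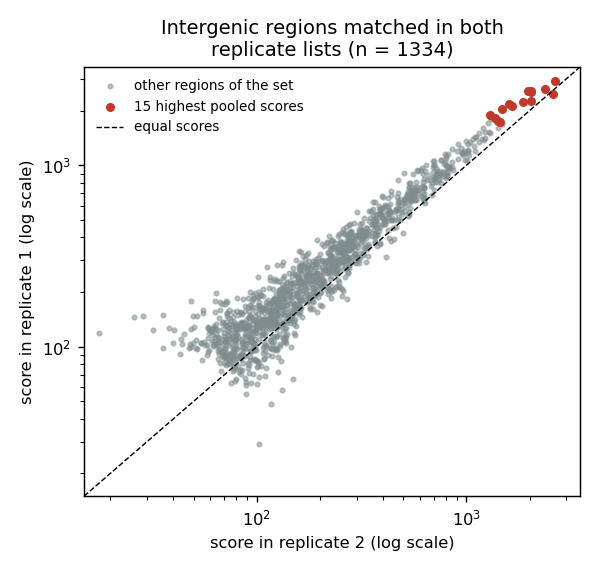
Scores of the 1334 regions of the set matched in both replicate lists, replicate 2 on the x axis and replicate 1 on the y axis, both log scales. The 15 with the highest pooled scores are red, and the dashed line marks equal scores. Most points lie above the line, and the spread is widest at low scores.

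The 1371 regions named 1147 genes, 6.65% of the 17242 autosomal protein-coding genes and 16.6% of the 6914 that are nearest to any eligible base. Of these genes 940 had 1 region, 193 had 2, 12 had 3, R02D5.24 had 4 and W04D12.1 had 5. The scores at W04D12.1 ran from 170.4 to 579 and those at R02D5.24 from 152 to 426. Not all of these regions lay upstream. At W04D12.1 they lay 775, 1513, 2482 and 2760 bp past its start, and another lay 1303 bp upstream. At R02D5.24 they lay 1898 and 2926 bp past its start, and 1793 and 2062 bp upstream. B0034.7, F58H10.1, ZK897.10 and C05A2.4, named below, also had regions past their own ends. Genes with 3 regions included chd-7 (3203, 184 and 157), frm-7, a FERM-domain gene (880.2, 508 and 264), and F56H11.2 (926, 333 and 210.1). They also included ulp-4, which encodes a SUMO protease (802, 481 and 165), umps-1, which encodes the UMP synthase of pyrimidine synthesis (532, 209.5 and 202), and dmsr-1, a neuropeptide receptor gene (274, 268 and 252). The other genes with 3 regions were ZK897.10 (704, 297 and 205), F58H10.1 (611, 319 and 213), F55C12.4 (348, 191 and 169.6), C05A2.4 (311, 246 and 179), B0034.7 (252, 234 and 186) and F41C3.2 (199, 169 and 159.6). In some, such as chd-7 and ulp-4, 1 region stood well above the others, while in others, such as dmsr-1, B0034.7 and F41C3.2, the scores were close together. Of all regions of the set, 31.8% had another summit of the map within 1 kb, against 25.5% of other regions.

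The genes of the set also tended to have LIN-14 in their promoter windows. A promoter region was present for 513 of the 1147 genes (44.7%, 95% exact interval 41.8 to 47.7%). It was present for 918 of the 5767 autosomal genes with eligible sequence and no region of the set (15.9%, 14.98 to 16.9%), and for 23.0% of all 19973 protein-coding genes. Counted by region, 634 of the 1371 (46.2%) belonged to a gene with a promoter region, and 737 to a gene with none. With a promoter window that began 500 bp upstream, which also widens the set, the share was 30.2%, and with only the stronger 50% of regions counted it was 30.4%. Both settings leave fewer promoter regions at all genes. The shares of other genes were not recomputed, so these values cannot be set beside the 15.9 and 23.0% above. Where both were present, the outlying region was compared with the highest-scoring promoter region of its gene. It had the higher score in 300 of 634 cases (47.3%, 43.4 to 51.3%). The median was 393 for the outlying regions and 429 for those highest promoter regions. A gene with several regions of the set counts more than once here. Regions without such a partner had a median of 380.1, so scores of the set hardly differed by it. hif-1, egl-9 and sup-26 had a partner that scored lower, and rps-28, a ribosomal protein gene, had 257 at 2422 bp upstream against 2633 in its promoter window. daf-16, which encodes the FOXO factor of insulin signalling, had 636 at 1921 bp upstream against 1992 in its highest-scoring promoter region.

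Summits of the set held the leading 6-mers of the sequences printed above about as often as other regions did. At least 1 of the 5 occurred within 50 bp of 341 of the 1371 summits (24.9%, 95% exact interval 22.6 to 27.3%), against 24.3% of other regions and 24.4% of all 11115. Windows of the same length centred 300 bp to either side of the summits of the set had 6.27 and 5.76%, and 85054 adjacent windows of that length over the eligible sequence had 6.89%. Autosomal promoter regions had more, 31.4%. The 5 are not independent, since they overlap within GAGACGCAGA, whose reverse complement is TCTGCGTCTC. The whole run, put together after the 6-mers were seen, lay in 77 summit windows of the set (5.62%, 4.46 to 6.97%), in 4.87% of other regions, in 0.547% of the flanking windows and in 0.463% of the adjacent windows. M106.2 was printed, in addition to the summits that the rule chose, because it holds this run.

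GAGAGA, which can overlap the run as it does at M106.2, was the most frequent of the named sequences and the one in which the set stood highest. It occurred in 434 summit windows (31.7%, 29.2 to 34.2%), against 26.1% of other regions, 28.0% of autosomal promoter regions and 26.8% of all regions. The windows to either side had 5.62 and 5.69%, and the adjacent windows 6.05%. The interval of the set's share lies above these 3 shares, although counting intervals treat regions as independent. The 3 groups overlap, since all regions include the set and other regions include the autosomal promoter regions. Separate shares for intergenic regions beyond 3 kb or on the X chromosome are not given here. Whether the excess is particular to the set was not tested. Matches were spread over about 100 bp to either side of the summit. In 20-bp bins GAGAGA reached 9.04% of the set in both bins from -60 to -20 bp, and the leading 6-mers reached 7.37% in the bin from 0 to 20 bp.

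**Figure D4:**
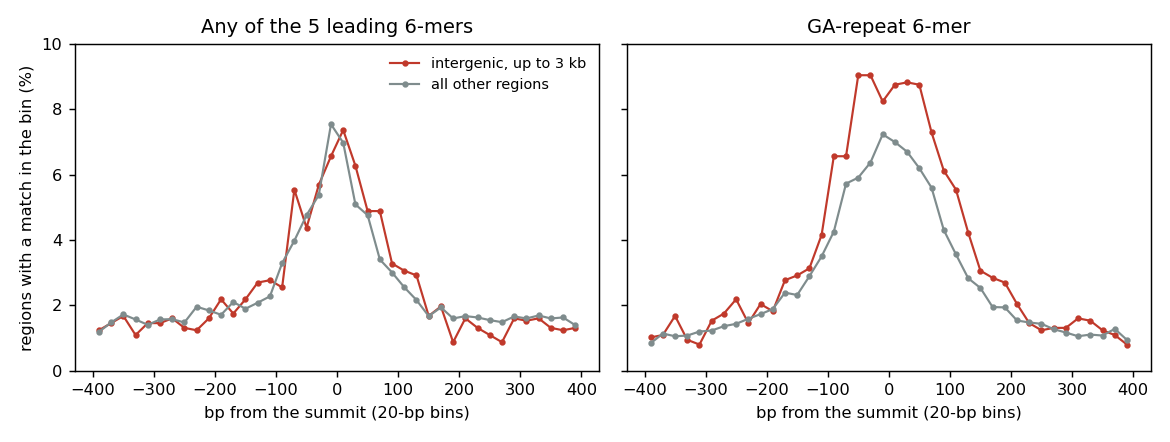
Share of regions with a match, by distance from the summit in 20-bp bins, for any of the 5 leading 6-mers (left) and for the GA-repeat 6-mer (right). Red is the set and grey is all other regions. Both kinds of match peak near the summit, at 7.37% and 9.04% of the set, and the GA repeat is higher in the set than in other regions over the central bins.

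Strong regions held these sequences more often than weak ones. From the lowest quartile of score to the highest, a leading 6-mer occurred in 18.7, 19.8, 24.3 and 36.7% of the set, and GAGAGA in 23.0, 23.9, 32.2 and 47.5%. GC content within 50 bp of the summit moved with score as well, at 40.5, 41.4, 43.6 and 46.7%, and its part in these shares was not tested. Regions with both kinds of sequence numbered 152 and had a median score of 681. Regions with GAGAGA only numbered 282 with a median of 465, those with a leading 6-mer only numbered 189 with 427, and the 748 with neither had 319.6. Neither was present in 54.6% of the set, which included lin-41, sup-26, ppm-2, ari-2, mau-2, C33D9.3, letm-1 and mrpl-20 of the top 15.

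The summits of the set were richer in GC than the sequence around them, with 43.1% (SD 7.30 across regions) against 33.6 and 33.3% in the windows to the left and right. In other regions the summits had 43.7% and the flanks 34.6 and 34.5%. Of the other sequences that were searched on both strands, CACGTG occurred in 5.47% of the summit windows, against 1.31 and 1.39% in the flanks. GGACA occurred in 15.9% against 6.05 and 7.51%, and CGGAC, which can overlap it, in 7.22% against 2.85 and 2.70%. Each was about as frequent at other summits, with 4.73% for CACGTG, 15.3% for GGACA and 8.37% for CGGAC. The homeodomain-type TAATTA was rarer at the summits, with 1.82% (1.18 to 2.68%) against 5.62 and 4.45% in the flanks. Its share at other summits, 3.13%, lay above the interval of the set, but that of autosomal promoter regions, 2.27%, lay within it. TGATAA, a site of the ELT factors, was present in 8.75% against 10.5 and 10.2% in the flanks. For CAGCTG, an E-box, the shares were 2.55% against 1.53 and 1.90%, and for TGANTCA, the AP-1 type, 2.70% against 4.01 and 3.14%. For AGGTCA, a nuclear receptor core, they were 4.09% against 3.72 and 3.43%, and for GTAAACA, the forkhead type, 1.68% against 1.61 and 1.09%. The adjacent windows had 1.497% for CACGTG, 8.98% for GGACA, 4.23% for CGGAC, 5.03% for TAATTA, 9.43% for TGATAA, 1.57% for CAGCTG, 2.87% for TGANTCA, 2.83% for AGGTCA and 1.25% for GTAAACA. A match describes letters in a window and does not show that a factor bound there.

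The genes that the set named were looked up on 28 gene lists, read as regions per Mb of eligible sequence nearest to the genes of a list, against 159.6 per Mb over all genes. Most lists of signalling genes stood above this level, and 1 had no region. The insulin receptor to DAF-16 list had 6 regions at 4 of its 12 autosomal genes, or 751 per Mb, but over only 7.99 kb. pptr-1, which encodes a phosphatase subunit that acts on the kinase AKT-1, had 2710.3 at 1430 bp upstream (1523 in replicate 1 and 1224 in replicate 2) and a second region of 365 at 2661 bp. akt-1 had 1552 at 2327 bp (850 in replicate 1 and 707 in replicate 2), a second region of 210 at 1713 bp, and a promoter region of 415. The pptr-1 and akt-1 regions, 4 in all, each held a leading 6-mer, and the daf-16 region described above held none. The remaining region of the list, at another gene, is not described here. These regions therefore give no share for the list to set beside the 24.9% of the whole set.

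The Wnt pathway had 10 regions at 9 of 25 genes, or 394 per Mb. pry-1, which encodes an Axin scaffold, had 1734 at 1928 bp upstream, kin-19, a casein kinase gene, had 1382 at 1209 bp and 543 at 2102 bp, and mom-5, which encodes a Frizzled receptor, had 732 at 1736 bp. The mom-5 summit also lay 1861 bp from the facing start of algn-10, so the nearest start names it by a small margin. TGF-beta signalling had 5 regions at 4 of 18 genes, or 297 per Mb. There lon-1, a gene of the body-size pathway, had 1019 at 1613 bp upstream, daf-4, which encodes the type II receptor, had 554 at 1504 bp and 389 at 2321 bp, and dbl-1, a ligand gene, had 192 at 1027 bp. EGF and FGF receptor signalling had 5 regions at 4 of 17 genes, or 281 per Mb, among them sos-1, which encodes a Ras exchange factor (1255 at 1280 bp), let-756, an FGF gene (574 at 1799 bp), and lin-45, the Raf kinase gene (422 at 2842 bp and 387 at 1780 bp). Notch signalling had 0 regions at 16 genes, over 15.2 kb of eligible sequence. With at most 10 regions on any of these lists, their order carries wide counting error.

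Genes of muscle structure and of axon growth were above the background as well. Body wall muscle structure had 12 regions at 10 of 32 genes, or 389 per Mb. act-1, an actin gene, had 1387 at 2852 bp past its start, ttn-1, a titin gene, had 953 at 1654 bp upstream, and deb-1, which encodes vinculin, had 845 at 1279 bp and 308 at 2070 bp. Axon guidance and outgrowth had 13 regions at 11 of 34 genes, or 287 per Mb, led by unc-51, a kinase gene (2058 at 1419 bp upstream), plx-1, a plexin gene (1590 at 1507 bp), and unc-44, an ankyrin gene (1137 at 1264 bp and 214.5 at 2837 bp). Basement membrane had 5 regions at 4 of 17 genes, or 239.8 per Mb. mig-17, which encodes a secreted metalloprotease, had 756 at 1069 bp upstream, fbl-1, which encodes fibulin, had 651 at 2370 bp, and emb-9, a type IV collagen gene, had 356 at 1855 bp and 186 at 2541 bp.

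Among transcription factors the lists differed. Hox genes and cofactors had 4 regions at 3 of 8 genes, or 321 per Mb, all of low or middling score. unc-62, a Hox cofactor gene, had 507 at 2146 bp upstream, egl-5, a Hox gene, had 221 at 1664 bp, with 66.2 in replicate 1 and 149 in replicate 2, and ceh-13, a Hox gene, had 188 at 2559 bp and 158 at 1828 bp. Heterochronic genes had 4 regions at 4 of 16 genes, or 305 per Mb, and ceh- homeobox genes had 10 at 8 of 45, or 262 per Mb, led by ceh-58 with 551, ceh-16 with 549 and ceh-62 with 453. The nuclear hormone receptor family had 22 at 20 of 246 genes, or 147 per Mb, close to the level of all genes, with nhr-34 at 1672 and nhr-21 at 1659 after nhr-88. Muscle and mesoderm factors had 2 at 2 of 14 genes (139 per Mb), unc-120 with 432 and ceh-24 with 178. Seam and epidermal fate factors had 2 at 2 of 16 genes (111 per Mb), ceh-16 and the GATA factor gene egl-18 with 474. hlh- genes had 2 at 2 of 19 genes (114.8 per Mb), hlh-30 with 198 and hlh-2 with 193. Neuron identity factors had 3 at 3 of 31 genes, or 63.3 per Mb, with 297 at ceh-43, 219 at zag-1 and 180 at unc-130, so none was strong. The unc-130 region lay 2915 bp past the start of that gene.

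**Figure D5:**
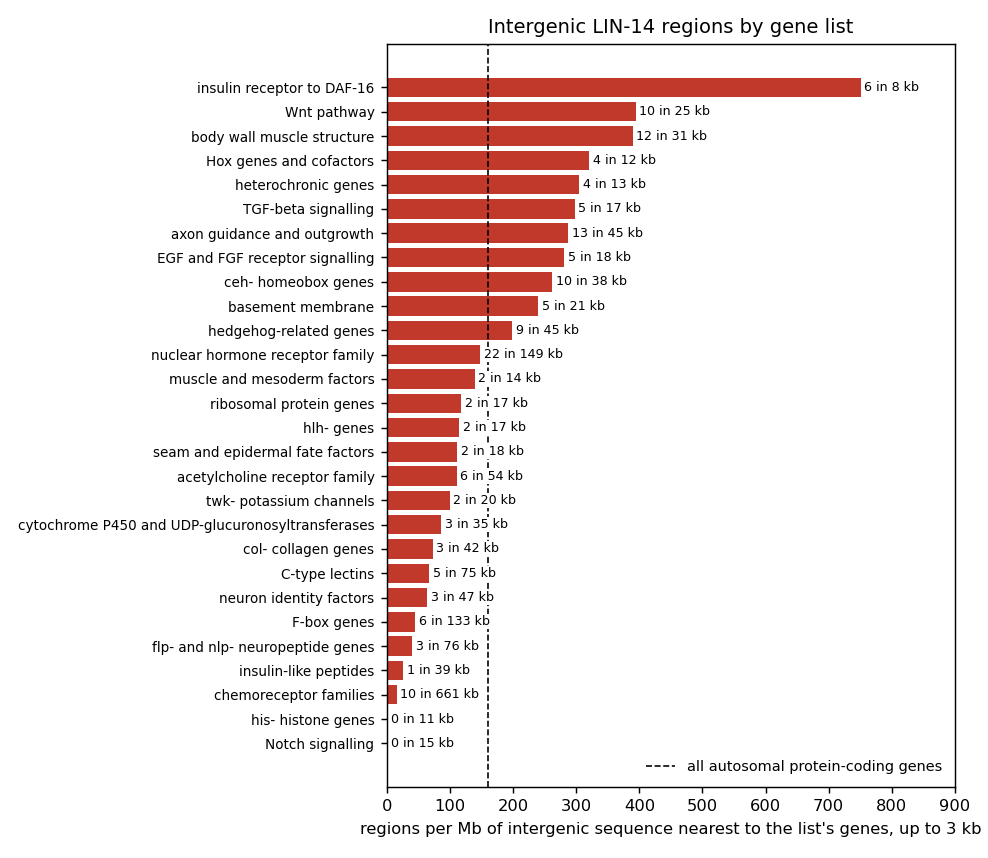
Regions of the set per Mb of eligible intergenic sequence nearest to the genes of each list, with the number of regions and the length in kb beside each bar. The dashed line marks 159.6 per Mb, the level of all autosomal protein-coding genes. The insulin receptor list is highest at 751 per Mb over 7.99 kb, and chemoreceptors have 15.1 per Mb over 661 kb.

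Chemoreceptors and several other gene families stood below the level of all genes. Chemoreceptor families, by far the longest stretch on any list with 661 kb, had 10 regions at 10 of 1276 genes, or 15.1 per Mb, led by srg-26 with 959.5, srg-55 with 952 and sre-2 with 665. The sre-2 region lay 2725 bp past the start of that gene. F-box genes had 6 at 6 of 305 genes, or 45.02 per Mb, with fbxa-167 at 507, fbxc-32 at 397 and fbxa-65 at 345. C-type lectins had 5 at 5 of 237 genes (66.5 per Mb), led by clec-91 with 1507, clec-10 with 695 and clec-1 with 501. Neuropeptide genes of the flp- and nlp- families had 3 at 3 of 70 genes (39.7 per Mb), at nlp-9, nlp-33 and nlp-51, and insulin-like peptides had the ins-13 region alone among 36 genes (25.3 per Mb). The nlp-33 and nlp-51 regions lay 969 and 2584 bp past the starts of those genes. Cytochrome P450 and UDP-glucuronosyltransferase genes had 3 at 3 of 130 (85.6 per Mb), at cyp-14A5 with 1019.6, ugt-65 with 615 and cyp-23A1 with 171. col- collagen genes had 3 at 3 of 129 (72.1 per Mb), at col-108 with 1527, col-98 with 412 and col-160 with 294.

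Ribosomal protein genes had 2 regions of the set at 2 of 76 genes, or 117 per Mb, at rps-28 and at rpl-21 with 156, while 62 of the 76 (81.6%) had a region in a promoter window. The rpl-21 region lay 1900 bp past the start of that gene. Eligible sequence at ribosomal protein genes was 17.1 kb in all. Hedgehog-related genes had 9 at 8 of 71 genes (198 per Mb), led by ptc-1, a Patched gene, with 985, ptr-23 with 576 and ptr-21 with 407. The acetylcholine receptor family had 6 at 6 of 53 genes (110 per Mb), led by lgc-12 with 1031, lgc-44 with 438 and acr-16 with 179, and twk- potassium channels had 2 at 2 of 34 (99.3 per Mb), at twk-39 with 541 and twk-12 with 153. his- histone genes had 0 at 68 genes, over 11.0 kb. Genes of a list can share a gap, and a nearest start does not show that a gene responds to LIN-14.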

How the data were processed

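The data were ChIP-seq peak lists of 2 biological replicates. The authors deposited 4 lists on ce11: 1 per replicate (25357 peaks in replicate 1 and 27170 in replicate 2), 1 called on both together (24683) and 1 of 11507 peaks left by an IDR filter on these, according to the deposited README texts. Aligner, caller and IDR cutoff remain not given in the sources used here. The score of a peak and its summit offset were used as deposited by the authors; the score is no read count, and read depth is unknown. A control experiment named in the labels was not analysed here.

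Peaks that overlapped were merged, and summits were placed against 19973 protein-coding genes of Ensembl release 115 (WBcel235). A gene was called eligible where its 5′ end is the nearest for at least 1 base that meets the conditions. Replicate summits were matched within 100 bp. The 5 leading 6-mers are those with the highest ratio of summit to flanking share (300 bp to either side) in regions outside the set, among 6-mers in 5% or more of those summit windows. Another 10 sequences were searched. Intervals are 95% exact binomial (Clopper-Pearson), cover counting error only, and treat regions as independent although they share libraries, genes and gaps. With 1 group there was no test between conditions, and no p-values are given. The genes named are those of the 15 highest scores, all heterochronic genes of the set, genes with 3 or more regions, up to 3 per other list, and the 3 regions nearest to each edge. Sequences were printed for the 10 highest scores and the heterochronic genes where outside chromosome I. The set, the 28 lists and the sequences searched were chosen with earlier results of these data known. Python 3.11.15, pandas 2.3.3, numpy 2.4.6, scipy 1.17.1 and matplotlib 3.10.9 were used. The steps were tested on simulated data.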

Additional observations from a re-analysis of the deposited data

How the results depend on the processing

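No paired analysis was possible because the study has 1 group. Of 48 recomputed values over 12 settings, 29 stayed within 1.5 times (counts), the 95% interval (shares) or the spread between replicates (ratios). The ratio of density in the set to that in promoter windows, and its alternatives, were added after seeing the data.

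Among the stronger 50% of regions the set had 711 members, a ratio of its median score to that of other regions of 0.975, a share with a promoter region at the same gene of 30.4%, a share with a leading 6-mer of 30.2% and a ratio of density to promoter windows of 0.8699; fewer regions are counted there by construction. With an upstream limit of 2 kb the set had 839 members, a score ratio of 1.09 and a density ratio of 1.087. With 5 kb the score ratio was 0.9615. With a promoter window that starts 500 bp upstream the score ratio was 1.108, the share with a promoter region 30.17% and the density ratio 0.8344. With 1000 bp from gene 3′ ends the score ratio was 1.042 and the density ratio 1.093. A window of 100 bp to either side of the summit raised the leading 6-mer share to 37.49%. Matching summits within 50 bp gave 88.48% in both lists, and within 200 bp 98.25%. Using the top peaks of 1 replicate only, the count ran from 1328 to 1392, the score ratio from 1.033 to 1.058, the share with a promoter region from 43.6 to 45.69%, the leading 6-mer share from 25.22 to 25.23% and the density ratio from 0.9747 to 1.013.

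Whether the set scored above other regions, or was denser than promoter windows, depends on where the set and the promoter window end. With no read counts in the lists, a single score has no error here.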
